A study of Mus musculus with 12 samples.

Results

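The Wnt ligands, their Frizzled receptors and 2 families of secreted antagonists were followed through the mouse aorta. Every gene whose symbol on the array began with Wnt, Fzd, Sfrp or Dkk and a number was taken, which gave 38 of the 22180 genes measured. These were 19 Wnt ligands, 10 Frizzled receptors, 4 secreted frizzled-related proteins (Sfrp) and 4 Dickkopf genes (Dkk). The same naming rule also caught Fzd10os, a noncoding transcript named for the strand opposite Fzd10, so 37 of the 38 code for protein. The rule itself uses gene names and no measured value.

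Wnt proteins are secreted lipid-bearing signals that bind Frizzled receptors at the cell surface. With the co-receptors Lrp5 or Lrp6 they stabilize β-catenin, which then acts with TCF/LEF factors on target genes, and with other co-receptors they steer cell polarity and movement. Sfrp proteins bind Wnt ligands outside the cell, whereas Dkk1, Dkk2 and Dkk4 act on Lrp5 and Lrp6. In the heart and great vessels these signals are known for their part in the outflow tract, the valves and the vessel wall.

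RNA came from healthy wild-type male mice on regular chow, aged 2 to 5 months by the labels, of 3 inbred strains: C57BL/6 (B6), DBA/2J (DBA) and 129S6/SvEvTac (129). The 4 groups were the aortic arch of DBA, of B6 and of 129 mice, and the aortic root of 129 mice, with 3 arrays each. Every array carried a pool of its own, made of 6 mice in the root, of 4 mice in the first B6 arch pool and of 5 in the other 8 arch pools. The p-values therefore concern differences among pools rather than single animals. For the root samples 1 text field says arch, but title and tissue say root, and the latter was followed. In 1 sentence the series text speaks of both apoE strains and wild-type mice, and the sample labels give wild type only.

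Values were log2 intensities, and array medians lay between 4.68 and 4.82. Mean log2 levels of 8 smooth muscle markers (11.4 to 11.8) and of 8 endothelial markers (9.23 to 9.68) lay well above those medians on all 12 arrays. In 2 arrays the transcripts of other organs stood out. The mean of 5 hepatocyte markers reached 8.99 on B6 arch replicate 1, compared with 3.83 to 4.99 elsewhere, and that of 5 lung epithelial markers reached 8.64 on DBA arch replicate 2, compared with 3.38 to 4.58 elsewhere. The mean of 9 cardiomyocyte markers on DBA arch replicate 2 was 10.4, whereas it was 6.24 to 7.36 on the other 8 arch arrays and 9.73 to 10.2 on the root arrays. B6 arch replicate 1 also had the lowest adipocyte mean of the arch arrays (8.34, against 10.2 to 10.7) and the highest fibroblast mean of all 12 arrays (11.3, against 10.4 to 10.97), and the endothelial gene Kdr stood at 6.65 there, its lowest value of the 12 arrays. The calls between strains, and most uncalled strain differences named for the 38 genes, are also given without both arrays.

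To show the regulatory DNA of the genes on which the comparisons turned, the 250 bases before the annotated start are printed 5′ to 3′ for the 2 ligands with the widest gap between root and arch, the 2 called genes with a TCF/LEF core, and the 2 genes that differed between strains. They come from RefSeq on build GRCm38.p6, a reference made from C57BL/6J: Wnt9b at chr11:103749822-103750071 (minus strand), Wnt4 at chr4:137277385-137277634 (plus strand), Wnt11 at chr7:98834862-98835111 (plus strand), Fzd1 at chr5:4758217-4758466 (minus strand), Wnt2b at chr3:104961710-104961959 (minus strand) and Sfrp2 at chr3:83766071-83766320 (plus strand). Capitals mark a TCF/LEF core (CTTTGA or its reverse complement TCAAAG) or a GC box (GGGCGG or CCGCCC).
Wnt9b: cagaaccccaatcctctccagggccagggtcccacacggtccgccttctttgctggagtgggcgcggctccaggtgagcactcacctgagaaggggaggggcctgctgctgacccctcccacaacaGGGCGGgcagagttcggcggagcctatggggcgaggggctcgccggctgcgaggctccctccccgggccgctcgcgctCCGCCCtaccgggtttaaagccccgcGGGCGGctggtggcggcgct
Wnt4: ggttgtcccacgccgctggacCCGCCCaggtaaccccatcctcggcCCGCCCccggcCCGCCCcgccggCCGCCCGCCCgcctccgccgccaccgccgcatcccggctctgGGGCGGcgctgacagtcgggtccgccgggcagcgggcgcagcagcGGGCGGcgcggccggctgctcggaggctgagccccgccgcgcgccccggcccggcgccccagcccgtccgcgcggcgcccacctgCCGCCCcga
Wnt11: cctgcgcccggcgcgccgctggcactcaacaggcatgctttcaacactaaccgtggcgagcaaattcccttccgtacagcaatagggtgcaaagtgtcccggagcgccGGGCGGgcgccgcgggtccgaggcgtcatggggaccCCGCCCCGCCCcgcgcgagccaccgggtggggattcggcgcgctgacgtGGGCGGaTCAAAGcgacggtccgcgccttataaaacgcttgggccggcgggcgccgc
Fzd1: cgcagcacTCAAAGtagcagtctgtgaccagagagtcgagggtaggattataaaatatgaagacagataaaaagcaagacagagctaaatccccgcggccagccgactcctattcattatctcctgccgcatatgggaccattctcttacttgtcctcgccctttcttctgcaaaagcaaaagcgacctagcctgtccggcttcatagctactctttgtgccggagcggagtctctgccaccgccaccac
Wnt2b: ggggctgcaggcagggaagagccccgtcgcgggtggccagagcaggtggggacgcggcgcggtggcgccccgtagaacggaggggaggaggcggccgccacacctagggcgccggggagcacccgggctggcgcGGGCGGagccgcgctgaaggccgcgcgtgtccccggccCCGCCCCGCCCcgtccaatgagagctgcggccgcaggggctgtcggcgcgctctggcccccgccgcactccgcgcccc
Sfrp2: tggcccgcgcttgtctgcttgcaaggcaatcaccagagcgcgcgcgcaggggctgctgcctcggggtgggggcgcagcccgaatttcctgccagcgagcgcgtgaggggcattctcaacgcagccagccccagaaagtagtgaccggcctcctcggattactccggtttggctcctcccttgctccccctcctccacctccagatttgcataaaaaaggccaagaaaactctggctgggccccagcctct

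The TCF/LEF core occurred in 13.8% of all 32851 promoter windows of this length and in 4 of the 28 windows held for 25 of the 38 genes. Its 4 genes were Dkk1, Fzd1, Wnt11 and Wnt5b. In the printed window of Wnt11 the core lay 50 bases before the start and in that of Fzd1 242 bases before it. Another window of Wnt11, at a different annotated start, held neither a TCF/LEF core nor a GC box. The GC box occurred in 32.7% of all windows and in 20 of the 28, among them the printed windows of Wnt9b, Wnt4, Wnt11 and Wnt2b. The windows of Wnt9b, Wnt4, Wnt2b and Sfrp2 held no TCF/LEF core in these letters. The strains' own alleles and the array's probe sequences were not used here.

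The first comparison asked how the aortic root differed from the arch within 129 mice. Of the 38 genes, 18 passed the test (47.4%), 15 of them higher and 3 lower in the root. Over all 22180 genes 15.8% passed, 8.36% higher and 7.45% lower. Wnt9b, Wnt4 and Fzd10os were about 3-fold higher in the root, and Sfrp4, Sfrp2 and Fzd4 were lower. Wnt9b, Wnt4, Fzd10os, Wnt7a, Fzd9 and Fzd10 were dim, with a mean over the 12 arrays below the all-gene median (5.63). Of the 20 members below that level these 6 passed (30%), against 9.37% of all genes below it. Among the 18 members at or above it 12 passed (66.7%), against 22.3% of such genes. A filter at that level leaves the 6 dim genes out. The median difference of the 38 genes was 0.27 on the log2 scale, against 0.0013 over all genes. For 26 of the 38 genes the 3 root arrays and the 3 arch arrays did not overlap, 20 with the root above and 6 with the root below, compared with 35.8% of all genes. With each array omitted in turn, 12 of the 18 genes kept their call all 6 times. The other 6 were Dkk2, Fzd10, Fzd3, Sfrp2, Wnt16 and Wnt9a, and without root replicate 3 the count was 12.

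The tissue makeup of root and arch also differed. All 6 mesothelial markers, 8 of 9 cardiomyocyte markers, 6 of 7 macrophage markers, 5 of 9 valve and cartilage markers and 3 of 8 fibroblast markers rose in the root. All 6 adipocyte markers and 7 of 8 T cell markers fell, whereas 1 of 8 smooth muscle markers rose. Of 8 endothelial markers 3 rose, with Emcn higher by 1.83, and 1 fell, Kdr (difference −0.84). Mean log2 levels of the mesothelial list were 7.53 to 7.74 in the root and 5.57 to 6.20 in the 129 arch, those of the valve and cartilage list 6.38 to 6.69 and 5.15 to 5.25, those of the macrophage list 8.69 to 8.96 and 7.03 to 7.68, those of the adipocyte list 6.40 to 6.99 and 10.4 to 10.6, those of the T cell list 4.65 to 4.91 and 6.68 to 7.54, and those of the endothelial list 9.55 to 9.68 and 9.32 to 9.46. Their part in any difference between root and arch was not tested, and in such bulk tissue fewer cells of a type and less RNA per cell cannot be told apart. The pattern over all lists is drawn in the heat map of marker levels.

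**Figure D1:**
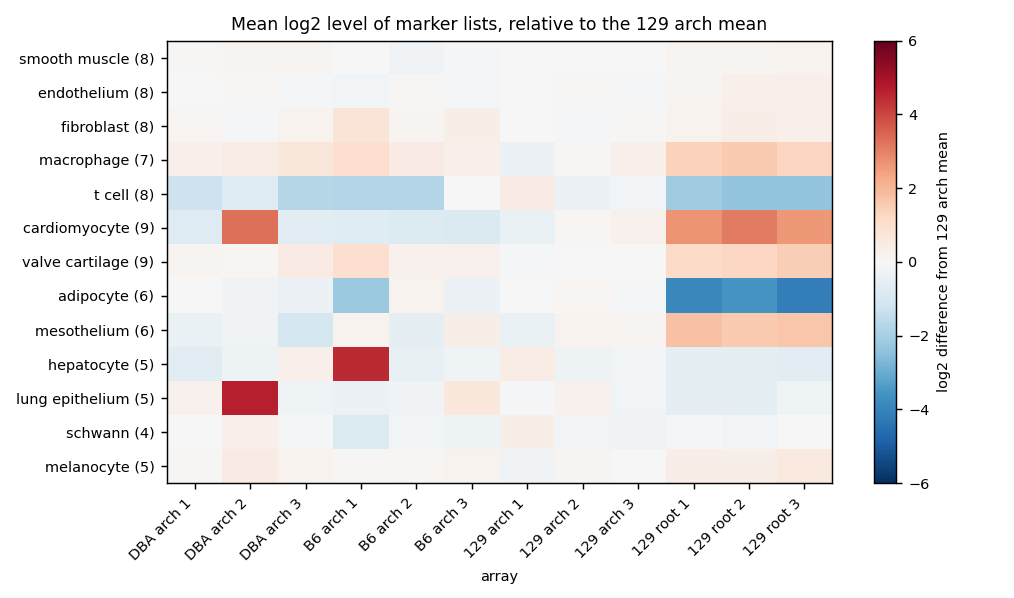
Mean log2 level of 13 marker lists on the 12 arrays (columns), as the difference from the mean of the 3 arrays of 129 arch, with the number of measured genes of each list in brackets. The 3 root arrays stand above the 129 arch in the cardiomyocyte, mesothelial, macrophage and valve lists and below it in the adipocyte and T cell lists, and the dark cells of DBA arch 2 and B6 arch 1 are the lung, heart and liver transcripts of those arrays.

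Among the ligands, 7 of 19 rose in the root and 12 did not pass. Their median difference was 0.27, and for 11 of the 19 the groups did not overlap. Wnt9b, a ligand known for its roles in kidney tubules and in heart valve development, had values of 7.10, 6.46 and 7.04 in the root and 5.16, 5.10 and 5.33 in the 129 arch. All root values lay above all arch values, and the difference of 1.67 (95% CI 1.24 to 2.10), or 3.18-fold, was called (adjusted p = 0.00118). In the arch of the other strains Wnt9b was lower still, at 4.61, 4.62 and 4.65 in DBA and 4.37, 4.96 and 4.71 in B6.

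Wnt4, a ligand required for kidney and female reproductive tract development, had 5.93, 5.596 and 6.09 in the root and 4.69, 4.22 and 4.07 in the 129 arch. The root exceeded the arch by 1.55 (95% CI 1.08 to 2.01; adjusted p = 0.00229), or 2.92-fold. Among the other arch arrays DBA replicate 2 stood highest for Wnt4 at 5.31, the array with the cardiomyocyte and lung transcripts, against 3.89 and 4.24 in the other 2 DBA pools. The 3 B6 pools had 4.28, 4.52 and 4.69. Wnt4 was called in each of the 6 fits without 1 array (adjusted p up to 0.0124).

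Wnt5a and Wnt11, ligands best known for signalling without β-catenin, rose together with Wnt7a, Wnt16 and Wnt9a. Wnt5a had 8.03, 7.88 and 7.87 in the root and 7.15, 7.22 and 7.10 in the 129 arch, a difference of 0.77 (95% CI 0.56 to 0.98; adjusted p = 0.00171). The groups were apart by more than their own spread, yet B6 arch replicate 1, the array with liver transcripts, had 8.13, above every root array. The other 2 B6 pools had 6.999 and 7.31. That array had the highest fibroblast mean, and an adipocyte mean (8.34) below the other arch arrays but above the root (6.40 to 6.99). Its valve and cartilage mean (6.20) and macrophage mean (8.40) were the highest of the arch arrays. Both lay below the root, at 6.38 to 6.69 and 8.69 to 8.96. The part of these lists was not tested. When all 12 arrays shared 1 estimate of the spread, the Wnt5a call was lost (adjusted p = 0.0642).

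Wnt11 had 6.89, 6.91 and 6.73 in the root and 6.40, 6.30 and 6.30 in the 129 arch, and the difference was 0.51 (adjusted p = 0.00975). This is the ligand whose printed promoter holds the TCF/LEF core in capitals. Wnt7a, known for its role in limb and nerve patterning, had 5.07, 4.80 and 4.85 against 4.37, 4.28 and 4.10, a difference of 0.66 (adjusted p = 0.00913). With all 12 arrays in 1 fit the Wnt7a call was lost (adjusted p = 0.105). DBA arch replicate 3 had 4.94 for Wnt7a, above root replicates 2 and 3.

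Wnt16, a ligand tied to bone thickness, had 8.85, 8.80 and 8.86 in the root and 8.46, 8.19 and 8.30 in the 129 arch. Its difference of 0.52 (adjusted p = 0.0121) passed, but not without root replicate 3 (adjusted p = 0.0526). Wnt9a, a ligand of joint formation, had 7.27, 7.23 and 7.35 against 6.84, 6.79 and 6.92, which was 0.43 higher (adjusted p = 0.0153). The call of Wnt9a was lost without root replicate 1 or 3 (adjusted p up to 0.068) and with all 12 arrays in 1 fit (0.259).

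Among the 12 ligands not called, Wnt2 came closest, with 5.94, 6.02 and 5.79 in the root and 4.95, 4.96 and 5.66 in the 129 arch. The root values were all above the arch values, but arch replicate 3 lay near them, and the difference of 0.73 (95% CI 0.25 to 1.20) missed the threshold (adjusted p = 0.0520). The fits that left out 1 array gave Wnt2 an adjusted p between 0.00404 and 0.144, and it passed without arch replicate 3. Wnt7b (difference 0.28, adjusted p = 0.395) and Wnt8a (−0.34, adjusted p = 0.399) were within the spread of the pools.

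**Figure D2:**
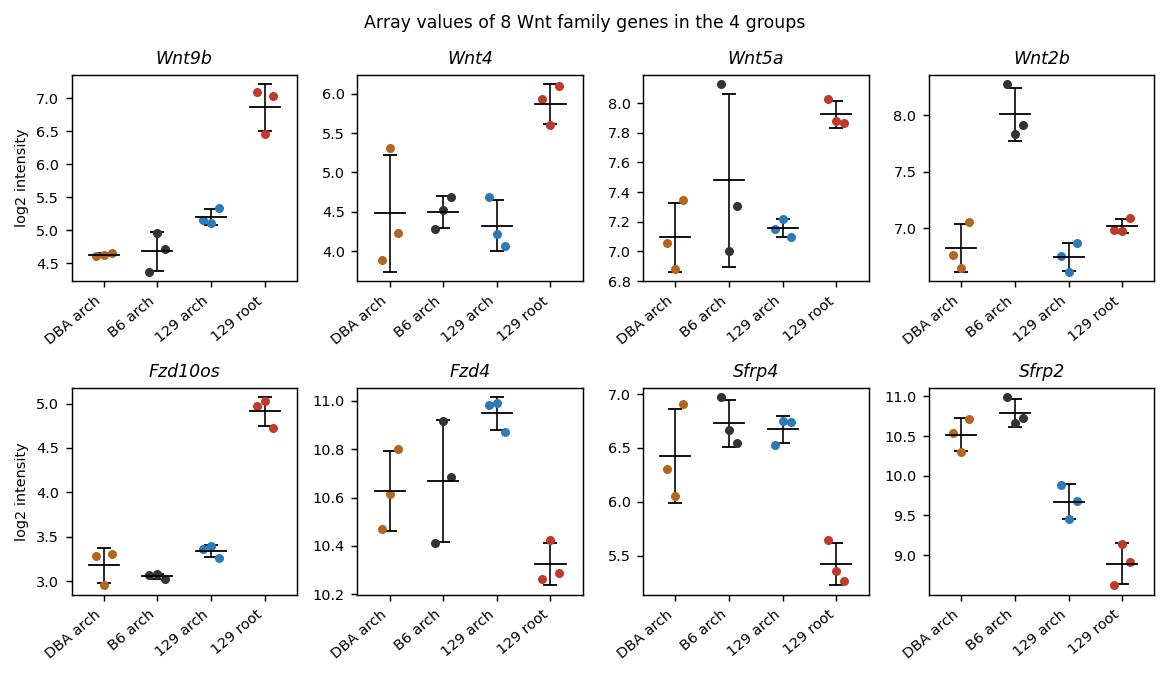
Log2 intensity of 8 genes in the 4 groups (points, 1 array each; long bar, mean; error bar, SD, n = 3), each panel with its own axis, which does not start at 0. Wnt9b, Wnt4 and Fzd10os stand above all arch groups in the root, Sfrp4 below them, and Wnt2b is highest in the B6 arch, at 7.83 to 8.27.

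Of the 10 Frizzled receptors 4 rose and 1 fell, with a median difference of 0.21. Fzd9 had 5.98, 5.67 and 6.34 in the root and 4.90, 4.94 and 5.21 in the 129 arch, and these groups were apart. Their difference was 0.98 (95% CI 0.55 to 1.40; adjusted p = 0.0112), or 1.97-fold. B6 arch replicate 1 had 5.83 for Fzd9, above root replicate 2. Fzd1 had 10.23, 10.13 and 10.38 in the root and 9.43, 9.72 and 9.48 in the 129 arch, which gave 0.70 (adjusted p = 0.00723). It is the receptor whose printed promoter begins close to a TCF/LEF core.

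Fzd10 and Fzd10os, the noncoding transcript beside it, both rose. Fzd10os had 4.97, 5.03 and 4.73 in the root and 3.36, 3.40 and 3.26 in the 129 arch, and no arch array of any strain exceeded 3.40. The difference of 1.57 (95% CI 1.31 to 1.83; adjusted p = 0.000207) was 2.97-fold. Fzd10 itself had 3.10, 3.92 and 3.59 in the root and 2.80, 2.72 and 2.63 in the 129 arch, with a wider spread in the root. Its difference of 0.82 (adjusted p = 0.0345) was lost in 5 of the 6 fits without 1 array (adjusted p up to 0.106). Whether signal of one strand enters the other's probes was not tested.

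Fzd4, which also serves as the receptor for norrin in blood vessels, was the receptor that fell. It had 10.26, 10.42 and 10.29 in the root and 10.98, 10.99 and 10.87 in the 129 arch, with no overlap. The root was lower by 0.62 on the log2 scale (95% CI of the difference −0.84 to −0.41; adjusted p = 0.00420), or 1.54-fold. Endothelial cells are a cell type in which Fzd4 acts. The mean of their 8 markers was higher in the root, with Emcn higher by 1.83 and Kdr lower by 0.84. Of the 8 differences 5 were above 0 and 3 below, with a median of 0.22. Pecam1 had means of 10.96 in the root and 10.99 in the 129 arch, and Cdh5 10.96 and 11.24. The part of this list in the result was not tested. In the other arches Fzd4 had 10.47, 10.61 and 10.80 in DBA and 10.41, 10.91 and 10.68 in B6.

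Fzd3, known for axon guidance and hair cell polarity, had 6.16, 6.03 and 5.91 in the root and 5.74, 5.49 and 5.57 in the 129 arch. The difference of 0.43 (adjusted p = 0.0400) was lost in 5 of the 6 fits without 1 array (adjusted p up to 0.125). For Fzd3, B6 arch replicate 1 (6.06) and DBA arch replicate 2 (6.00) lay above root replicate 3. Fzd6 was higher by 0.27 without passing (adjusted p = 0.0658), with 8.52, 8.60 and 8.53 against 8.30, 8.26 and 8.28. Fzd7 (difference 0.14) and Fzd8 (−0.15) had adjusted p of 0.310 and 0.332.

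The Sfrp antagonists split, with 1 higher, 2 lower and a median difference of −0.77. Sfrp1 had 11.01, 11.08 and 10.91 in the root and 10.38, 10.44 and 10.56 in the 129 arch. All 3 root arrays lay above the 129 arch, and the difference of 0.54 was called (95% CI 0.31 to 0.76; adjusted p = 0.00918). B6 arch replicate 1 reached 10.96, and the other 2 B6 pools had 9.67 and 10.01. That array had the low adipocyte mean and the high fibroblast, valve and macrophage means. With all 12 arrays in 1 fit the Sfrp1 call was lost (adjusted p = 0.230).

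Sfrp4 was the antagonist with the widest fall. It had 5.64, 5.36 and 5.27 in the root and 6.53, 6.75 and 6.74 in the 129 arch. The root lay below every arch array of the 3 strains, of which the lowest was 6.06. The root was lower by 1.25 on the log2 scale (95% CI of the difference −1.55 to −0.95; adjusted p = 0.000945), or 2.38-fold.

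Sfrp2 had 8.62, 9.15 and 8.92 in the root and 9.89, 9.45 and 9.68 in the 129 arch, and the difference was −0.78 (95% CI −1.18 to −0.38; adjusted p = 0.0212). The call was lost in 4 of the 6 fits without 1 array (adjusted p up to 0.067). Sfrp2 was the only one of the 38 genes with 2 probe sets, and the second moved the same way by −0.34 without passing (adjusted p = 0.296 over all probe sets). Sfrp5 had 4.11, 4.54 and 5.45 in the root and 6.00, 5.15 and 5.21 in the 129 arch, so the groups overlapped, and its difference of −0.75 did not pass (adjusted p = 0.238).

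Of the Dickkopf genes, Dkk3 and Dkk2 rose. Dkk3, a divergent member of the family whose link to Wnt signalling is less clear, had 11.82, 11.92 and 11.84 in the root and 11.03, 11.23 and 11.13 in the 129 arch. No arch array of any strain exceeded 11.46, and the difference was 0.73 (95% CI 0.52 to 0.95; adjusted p = 0.00217). Dkk2 had 6.00, 6.11 and 5.99 in the root and 5.58, 5.31 and 5.58 in the 129 arch, a difference of 0.54 (adjusted p = 0.0155). Without root replicate 2 or 3 the Dkk2 call was lost (adjusted p up to 0.0579), and the DBA arch had 6.00, 5.99 and 6.02, close to the root. Dkk1, the classical inhibitor of the co-receptors, had 4.10, 3.68 and 4.17 against 4.45, 4.28 and 4.18, a difference of −0.32 that did not pass (adjusted p = 0.223). Dkk4 differed by −0.05 (adjusted p = 0.822).

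**Figure D3:**
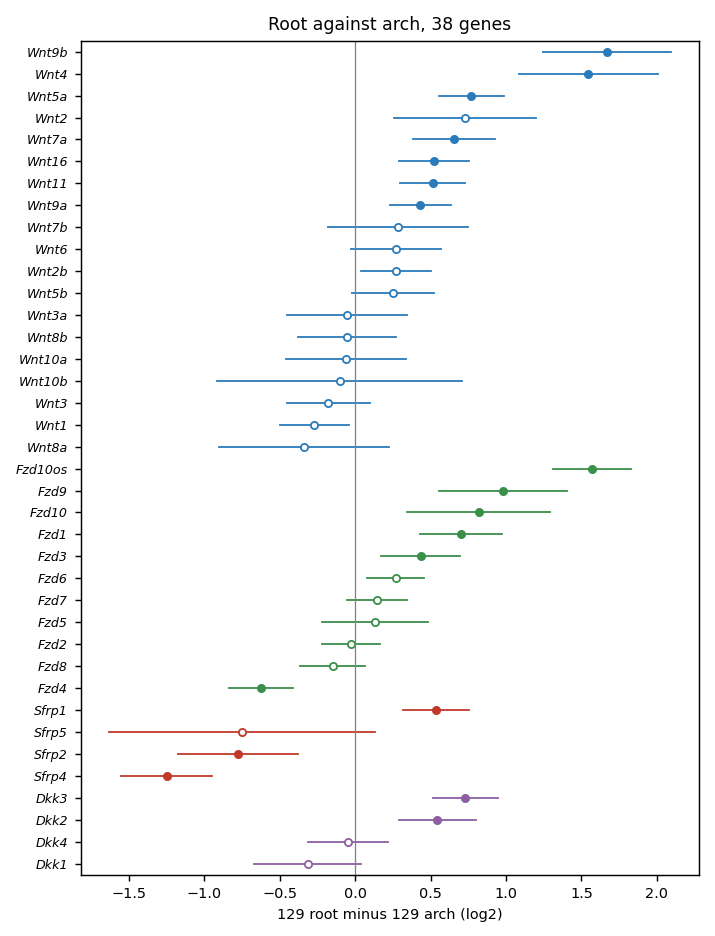
Difference between 129 root and 129 arch (log2, x axis) for the 38 genes, ordered by family and size, with 95% confidence intervals (n = 3 pools per group; blue, Wnt; green, Fzd and Fzd10os; red, Sfrp; purple, Dkk). Filled points passed the test: 15 lie to the right of 0, with Wnt9b at 1.67, and 3 to the left, with Sfrp4 at −1.25.

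Scaling of the arrays bears on these directions. Setting all arrays to the same median moved the median difference of all genes by about 0.1, from 0.0013 to −0.11, and the share of higher genes among all calls between root and arch from 52.9% to 34.2%. Of the 38 genes, 13 were then higher and 4 lower. Fzd10 (adjusted p = 0.0588) and Fzd3 (0.0856) were no longer called, and Wnt1 joined the lower genes, with Sfrp4, Sfrp2 and Fzd4. Among the genes called at first none changed direction under that scaling or under quantile normalization.

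The rest of the pathway was followed through 72 genes in 7 lists. Of these, 28 (38.9%) passed between root and arch, 24 higher and 4 lower, against 15.8% of all genes. Without root replicate 3 the count was 18. Of 9 co-receptors 5 rose. Tpbg, known from zebrafish as a membrane inhibitor of Wnt signalling, had 6.96, 6.64 and 7.31 in the root and 5.09, 5.11 and 5.29 in the 129 arch, a difference of 1.81 (adjusted p = 0.000701). Ptk7, a polarity co-receptor, was higher by 1.79 (adjusted p = 0.000853), the glypican Gpc3 by 0.81 (adjusted p = 0.00075) and Lrp5 by 0.69 (adjusted p = 0.00167).

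Among 14 other secreted or membrane modulators 5 rose and 1 fell. Wif1, a secreted inhibitor that binds Wnt ligands, had 10.95, 10.81 and 11.004 in the root and 8.45, 8.16 and 8.49 in the 129 arch. Its difference of 2.56 (adjusted p = 4.49e-05) was the widest of the 72 genes. The inhibitor Apcdd1 and norrin (Ndp), the ligand of Fzd4, were higher by 1.15 and 1.10 (adjusted p = 0.000857 and 0.00978). Frzb, a secreted relative of the Sfrp family, had 9.95, 9.85 and 9.80 against 9.31, 9.55 and 9.44, a difference of 0.43 (adjusted p = 0.0283). The Frzb call was lost in 5 of the 6 fits without 1 array (adjusted p up to 0.0988), with median centring (0.0709) and with all 12 arrays in 1 fit (0.121). The gene that fell was Sost, the sclerostin gene, named after its values were seen. It fell by 0.36 (adjusted p = 0.0338), and the call was lost in each of the 6 fits without 1 array (adjusted p up to 0.111).

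In the R-spondin axis, where some members raise and others lower Wnt receptor levels at the cell surface, 4 of 9 rose and 1 fell. Rspo1 had 8.21, 7.64 and 7.71 in the root and 6.28, 6.77 and 6.69 in the 129 arch (difference 1.27, adjusted p = 0.00527), whereas Rspo4 had 4.35, 4.33 and 4.36 against 5.28, 5.78 and 5.53 (difference −1.18, adjusted p = 0.00146). The R-spondin receptor Lgr5 and the ligase Rnf43, which removes Frizzled receptors, were higher by 0.95 and 0.85 (adjusted p = 0.0131 and 0.00708). The Lgr5 call was lost without root replicate 3 (adjusted p = 0.0511).

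Of 10 target and feedback genes 5 rose. Tnfrsf19 had 6.82, 6.91 and 6.69 in the root and 4.87, 5.11 and 5.25 in the 129 arch, a difference of 1.73 (adjusted p = 0.000233). Nkd2, a feedback inhibitor, rose by 1.60 (adjusted p = 0.000248), Ccnd1 (cyclin D1) by 1.57 (adjusted p = 0.00155) and Cd44 by 0.72 (adjusted p = 0.0117), the last not without root replicate 3 (adjusted p = 0.0506). Several of these genes also answer to signals other than Wnt.

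Of 11 genes for planar cell polarity 5 rose and 1 fell. Daam2, a formin-family partner of Dishevelled, had 6.88, 6.87 and 7.14 in the root and 5.96, 6.22 and 5.83 in the 129 arch (difference 0.96, adjusted p = 0.00351). Celsr1 (0.72), Prickle2 (0.62) and Dchs1 (0.56) were also higher, of which Celsr1 lost its call in 4 of the 6 fits without 1 array. With all 12 arrays in 1 fit the calls of Celsr1 and Dchs1 were lost (adjusted p = 0.0849 and 0.0815). Celsr1 means were 6.58 in the root, 5.86 in the 129 arch, 6.45 in the DBA arch and 6.57 in the B6 arch. In the same order Dchs1 had 7.89, 7.33, 7.92 and 8.07, Prickle2 7.66, 7.04, 7.26 and 7.11, and Daam2 6.97, 6.00, 7.01 and 6.33. The gene that fell was Celsr2, also named after its values were seen (difference −0.43, adjusted p = 0.0493). Its call was lost in each of the 6 fits without 1 array (adjusted p up to 0.154). Of 17 cytoplasmic and nuclear parts only Lef1 passed, and it fell by 1.59 (adjusted p = 0.00111). Lef1 is a DNA-binding partner of β-catenin that T cells also express. It had 5.68, 5.63 and 5.51 in the root and 7.52, 6.85 and 7.23 in the 129 arch, and moved with the T cell list, whose part in it was not tested.

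**Figure D4:**
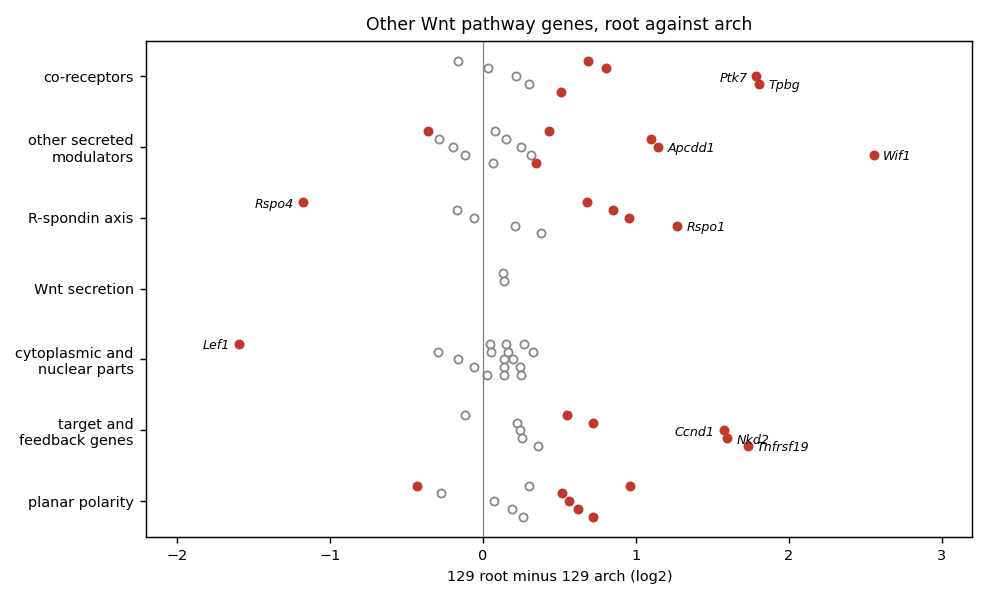
Difference between 129 root and 129 arch (log2, x axis) for 72 other Wnt pathway genes in 7 lists (rows); filled red points passed the test, open grey points did not, and points are spread vertically within a row for legibility. Of the points past the test 24 lie to the right of 0, with Wif1 at 2.56, and 4 to the left, with Lef1 at −1.59.

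The second set of comparisons asked how the arches of the 3 strains differed. Crosses between such strains had served to map plaque size at the root. Of the 38 genes, 1 was called between DBA and 129 (2.63%), 2 between B6 and 129 (5.26%) and 1 between DBA and B6 (2.63%), which involved only Sfrp2 and Wnt2b. Over all genes 1.44%, 1.45% and 1.55% were called. DBA exceeded 129 for 0.861% of all genes and lay below it for 0.582%, B6 exceeded 129 for 0.816% and lay below it for 0.636%, and DBA exceeded B6 for 0.857% and lay below it for 0.694%. At an unadjusted p under 0.05 limma counted 6 of the 38 genes in each of the 3 comparisons. The limma share of all genes under that limit is not given here. No excess over all genes can therefore be read from this count, or from the unadjusted limma counts given below. With the methods' Tukey-Kramer test 2, 4 and 6 of the 38 genes had an unadjusted p under 0.05, against 1547, 1514 and 1659 of all 22180 genes. Groups did not overlap for 9, 6 and 6 of the 38 genes, against 20.9%, 17.5% and 17.1% of all genes. The 3 comparisons share arrays and are not independent of each other.

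Wnt2b, a ligand needed with Wnt2 for lung formation in the mouse embryo, was higher in the B6 arch. It had 8.27, 7.83 and 7.91 in B6, 6.76, 6.65 and 7.06 in DBA, and 6.76, 6.61 and 6.86 in 129. All 3 B6 pools lay above all other arrays, the root included, which had 6.98, 6.98 and 7.09. B6 exceeded 129 by 1.26 (95% CI 0.91 to 1.62; adjusted p = 0.00572), or 2.40-fold. DBA was below B6 by 1.18 (difference −1.18, 95% CI −1.54 to −0.83; adjusted p = 0.00779), or 2.27-fold. DBA and 129 differed by 0.08 (95% CI −0.28 to 0.43; adjusted p = 0.913), and by 0.165 without both arrays that carried transcripts of other organs (adjusted p = 0.676).

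Both Wnt2b calls were made in each of the 9 fits without 1 array (adjusted p up to 0.0362 and 0.0405). Without both arrays that carried transcripts of other organs, B6 exceeded 129 by 1.13 (adjusted p = 0.0118) and DBA was lower than B6 (difference −0.96, adjusted p = 0.0325). Under the methods' Tukey-Kramer test neither passed after adjustment (0.101 and 0.111). A single probe set reported Wnt2b, and whether a strain's allele alters the binding of its probes was not tested.

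Sfrp2 was higher in the arch of DBA and of B6 than in that of 129. It had 10.54, 10.30 and 10.71 in DBA, 10.99, 10.66 and 10.73 in B6, and 9.89, 9.45 and 9.68 in 129. The 129 arch lay below every array of both other strains, and the 129 root was lower again. B6 exceeded 129 by 1.12 (95% CI 0.76 to 1.48; adjusted p = 0.0123), or 2.17-fold, and DBA exceeded 129 by 0.84 (95% CI 0.49 to 1.20; adjusted p = 0.0403), or 1.80-fold. The B6 and DBA arches differed by −0.27 (DBA minus B6, 95% CI −0.63 to 0.09; adjusted p = 0.556).

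The DBA call of Sfrp2 was lost in 7 of the 9 fits without 1 array (adjusted p up to 0.141), and the B6 call without 129 arch replicate 2 or 3 (up to 0.0561). Without both arrays that carried transcripts of other organs, the differences from 129 were 0.95 in DBA (adjusted p = 0.0291) and 1.02 in B6 (0.0260), and that between DBA and B6 was −0.07 (0.905). The second probe set of Sfrp2 differed in the same directions, by 0.40 and 0.46 (adjusted p = 0.422 and 0.336 over all probe sets). Among the 8 fibroblast markers, a cell type in which Sfrp2 is commonly found, 1 rose in B6 over 129 (Clec3b, by 1.45, adjusted p = 0.0125). Clec3b was also higher in DBA than in 129 by 1.04, with 8.22, 7.72 and 8.40 against 7.28, 6.80 and 7.14. Between DBA and 129 no fibroblast marker passed (lowest adjusted p = 0.0501), and 4 of the 8 differences were above 0 and 4 below. The fibroblast list had a mean level of 10.7 to 11.3 in B6, 10.4 to 10.8 in DBA and 10.5 to 10.6 in 129, and its part in the result was not tested.

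Of the other genes several had differences near those called, without passing. Wnt9b was lower in DBA and in B6 than in the 129 arch by 0.57 and 0.52 (differences −0.57 and −0.52, adjusted p = 0.134 and 0.177), and its lowest 129 pool (5.10) exceeded all 6 of the others. Without the 2 arrays that carried transcripts of other organs these differences were −0.57 and −0.36 (adjusted p = 0.102 and 0.315), and without B6 arch replicate 1 alone the difference between DBA and 129 passed (adjusted p = 0.0420). Wnt2 had 5.80, 6.01 and 5.71 in DBA and 4.83, 5.28 and 5.06 in B6, a difference of 0.78 (adjusted p = 0.126) that was 0.58 without those arrays (0.346). Dkk2 had 6.00, 5.99 and 6.02 in DBA and 5.65, 5.08 and 5.03 in B6, a difference of 0.75 (adjusted p = 0.0727). Without B6 arch replicate 1 and DBA arch replicate 2 the Dkk2 difference was 0.95 and passed (adjusted p = 0.0252), as it did without B6 arch replicate 1 alone (0.00859). Wnt11 was lower in B6 than in 129 (difference −0.48, adjusted p = 0.116), and the groups did not overlap. Wnt16 was higher in DBA than in B6 by 0.53 (adjusted p = 0.151), also without overlap.

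None of the 10 Frizzled receptors was called between strains by limma, and 1, 1 and 0 had an unadjusted p under 0.05 in the 3 comparisons. The nearest was Fzd8, with 8.68, 8.38 and 8.56 in DBA and 8.12, 7.90 and 7.97 in 129 (difference 0.54, adjusted p = 0.215). Fzd5 differed by 0.33 in the same comparison (adjusted p = 0.502). Without both arrays that carried transcripts of other organs these differences were 0.62 and 0.45 (adjusted p = 0.0701 and 0.229). Some pools stood apart from their group. Sfrp5, an antagonist also secreted by fat, had 7.05 on DBA arch replicate 2 and 5.25 and 5.47 on the other 2 DBA arrays, and its difference of 0.70 from B6 (adjusted p = 0.585) was 0.08 without the arrays that carried transcripts of other organs. Wnt10b had 5.15 on 129 arch replicate 3 and 3.89 and 3.83 on the other 2, so its difference of 0.53 between DBA and 129 had a 95% CI of −0.20 to 1.25 (adjusted p = 0.595). Without 129 arch replicate 3 the Wnt10b difference was 0.96 (adjusted p = 0.0611). The 4 Dickkopf genes had no call between strains by limma, with 2, 0 and 1 at an unadjusted p under 0.05. Dkk1 and Dkk4 differed between B6 and 129 by −0.10 and −0.13 (adjusted p = 0.850 and 0.795).

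**Figure D5:**
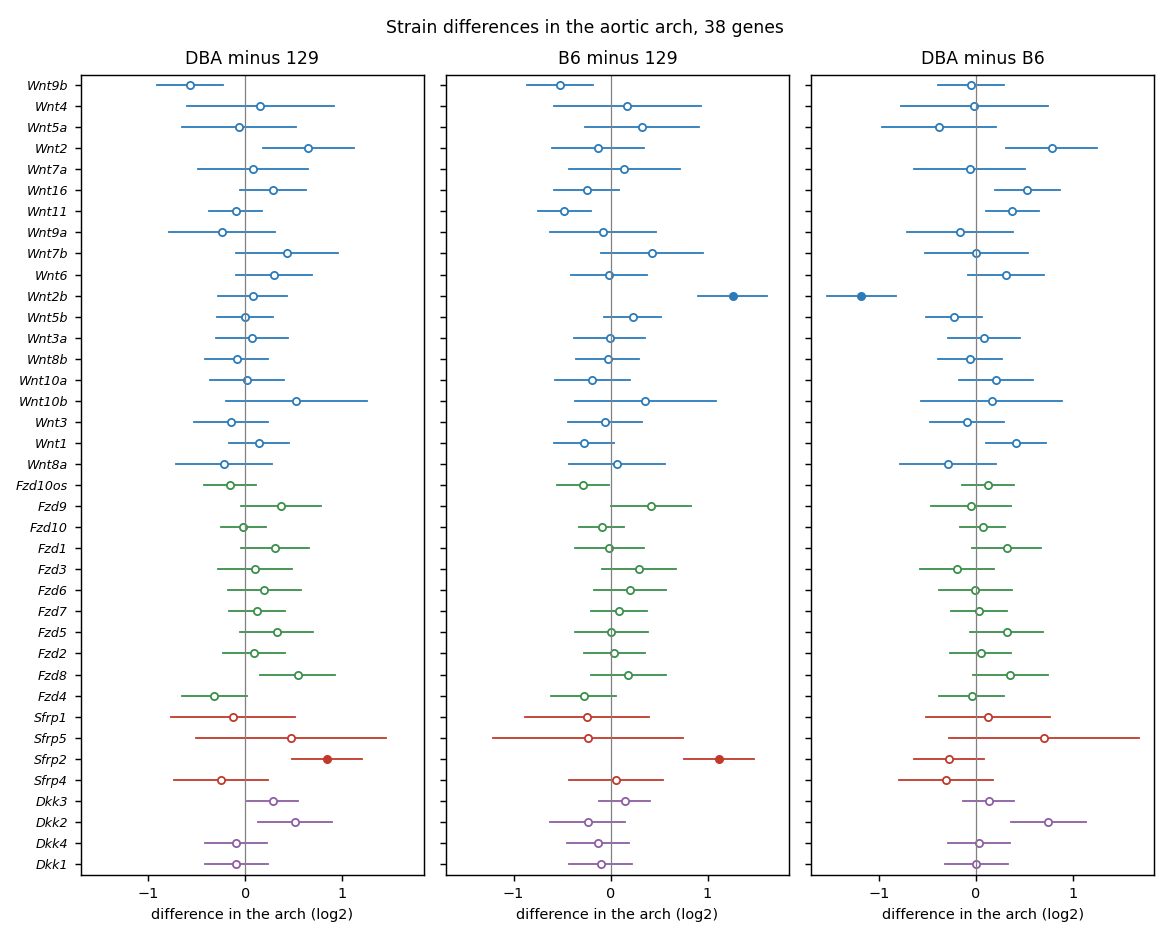
Differences between strains in the aortic arch (log2, x axis) for the 38 genes in the row order of the root comparison, with 95% confidence intervals (n = 3 pools per group; blue, Wnt; green, Fzd and Fzd10os; red, Sfrp; purple, Dkk). Filled points passed the test: Sfrp2 at 0.84 in the left panel, Wnt2b at 1.26 and Sfrp2 at 1.12 in the middle panel, and Wnt2b at −1.18 in the right panel.

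Of the 72 other pathway genes, 1 was called between DBA and 129, 2 between B6 and 129 and 1 between DBA and B6. These shares of 1.39%, 2.78% and 1.39% stood against 1.44%, 1.45% and 1.55% of all genes. Daam2 had 7.06, 6.81 and 7.16 in DBA and 5.96, 6.22 and 5.83 in 129, with no overlap, and was higher in DBA by 1.01 (adjusted p = 0.0189). Frzb had 9.81, 9.93 and 10.28 in DBA and 9.19, 8.77 and 8.64 in B6, a difference of 1.14 (adjusted p = 0.0162). The glypican Gpc4 was lower in B6 than in 129 by 0.57 (difference −0.57, adjusted p = 0.0234) and Dkkl1, a Dickkopf-like gene best known from testis, by 0.61 (difference −0.61, adjusted p = 0.0450). The calls of Gpc4 and Dkkl1 were lost without the 2 arrays that carried transcripts of other organs (adjusted p = 0.0646 and 0.0834), and those of Daam2 and Frzb were made (0.0181 and 0.0171). The Daam2 call was lost in 4 of the 9 fits without 1 array (adjusted p up to 0.0885) and the Frzb call in 3 of 9 (up to 0.0656). In such fits the Gpc4 call was lost in 5 of 9 (up to 0.109) and the Dkkl1 call in 7 of 9 (up to 0.171). Dkkl1 was dim, with a mean below the all-gene median (5.63). Under the Tukey-Kramer test Daam2, Frzb and Dkkl1 did not pass after adjustment (0.174, 0.169 and 0.193), nor did Frzb with only the 6 arrays of DBA and B6 (0.0775). Gpc4 (0.0751) and Dkkl1 (0.0717) did not pass with only the 6 arrays of B6 and 129.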

How the data were processed

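The deposited table holds 1 normalized log2 intensity per probe set and array, which the authors made from Affymetrix Mouse Gene 2.1 ST arrays run on a single plate, with Affymetrix Expression Console. The log base was read from the values (0.668 to 13.6). Of the summarization method, version, genome build and detection calls, none is given in the sources used here. Dim genes may lie at background, and their folds may be understated. No scanner intensities were used, so background correction was not varied. The number of arrays limits the precision.

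Of 41345 probe sets, 23521 named 1 gene, 1820 several and 16004 none in the platform annotation. Each gene was represented by its brightest probe set (mean of 12 arrays), which left 22180. All 38 members were found in RefSeq's GRCm38.p6 gene table. Promoters came from the table of that build.

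The lmFit and eBayes functions of limma 3.58.1 (R 4.3.3) gave two-sided p-values, adjusted by Benjamini-Hochberg over all 22180 genes, and 0.05 was the threshold. Strains were compared in 1 fit of the 9 arch arrays, and root and arch over the 6 arrays of 129 mice. The fit was tested on simulated data. Errors are 95% confidence intervals of the model, and folds are ratios of geometric means. Alternatives were a filter at the median level (5.63), quantile normalization, median centring, a robust trended prior, other sets of arrays, the mean of a gene's probe sets, a replicate block, omission of each array and the methods' Tukey-Kramer test.

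Genes named were all members called in any comparison (19 of 38), in each family the 3 uncalled with the widest root difference and the 2 with the widest strain difference, and up to 4 called genes of each pathway list. Members and lists were chosen with earlier results of these data known.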

Additional observations from a re-analysis of the deposited data

How the results depend on the processing

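Between root and arch the 38 genes gave 12 to 20 calls over all alternatives and 12 to 16 in the fits without 1 array. The 72 pathway genes gave 18 to 22 calls (28 with all arrays) in the fits without 1 array, the lowest without root replicate 3. Between strains the counts were small and moved. For DBA against 129 the members called fell from 1 to 0 with the mean of probe sets, with only the 6 arrays of the contrast and under the Tukey-Kramer test (unadjusted counts 6, 9 and 2), and were 0 to 2 without 1 array. The pathway genes called went from 1 to 3 with the filter on dim genes or only 6 arrays, to 2 with the robust prior, all 12 arrays or without both arrays of other organs, to 0 under Tukey-Kramer (unadjusted 8), and 0 to 2 without 1 array. For B6 against 129 the members called went from 2 to 0 under Tukey-Kramer (unadjusted 4) and 1 to 2 without 1 array. The pathway genes called went from 2 to 1 with quantile normalization, the replicate block, only 6 arrays or Tukey-Kramer, to 5 with all 12 arrays, to 0 without both arrays of other organs (unadjusted 17), and 0 to 3 without 1 array. For DBA against B6 the members called went from 1 to 2 with the filter, all 12 arrays or without both arrays of other organs, to 0 under Tukey-Kramer (unadjusted 6), and 1 to 2 without 1 array. The pathway genes called went from 1 to 3 with the filter, to 4 with all 12 arrays, to 2 with the robust prior or without both arrays of other organs, to 0 with the replicate block, only 6 arrays or Tukey-Kramer (unadjusted 15, 14 and 12), and 0 to 2 without 1 array. The cause of these moves was not tested.

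Direction turned in 6 cases among the single genes named, all of them without a call. Wnt2b in DBA against 129 was −0.038 without DBA replicate 3 and up to 0.165 without another array. Dkk1 in B6 against 129 ranged from −0.173 to 0.028 and Wnt9b in DBA against B6 from −0.206 to 0.088 when 1 array was left out, both highest without B6 replicate 2. Dkk4 between root and arch was 0.0104 with quantile normalization, and without 1 array it ranged from −0.111 to 0.028, above 0 without arch replicate 1 or root replicate 3.

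The main fits used no pairing of pools by replicate number. Deviations of same-numbered pools correlated weakly, between −0.089 and 0.111. Between root and arch these values were 0.0421 to 0.0543, against −0.028 to −0.0185 for pools of unlike number. For DBA against 129 they were 0.0513 to 0.0617, against −0.0585 to 0.00425. In the comparisons with B6 both kinds of pair had values of both signs. With the replicate block 15 of the 38 genes were called between root and arch, and 1, 2 and 1 between strains, and 21 of the 72 pathway genes between root and arch. Under the block the calls of Dkk2, Fzd10 and Sfrp2 between root and arch were lost (adjusted p = 0.0535, 0.0663 and 0.0770). So were those of Frzb in DBA against B6 (0.0703) and Daam2 in DBA against 129 (0.0636), where the 1 pathway gene called was another. Gpc4 and Dkkl1 also lost their calls in B6 against 129 under the block (0.0706 and 0.0900).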

Other observations

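Of the 38 genes, 10 lie next to another of the 38 in the order of the measured genes on the chromosome, in 5 neighbouring pairs. Genes not measured here may lie between the genes of a pair. By their RefSeq positions the pairs were Wnt6 and Wnt10a on chromosome 1, Wnt3a and Wnt9a and also Wnt9b and Wnt3 on chromosome 11, Wnt10b and Wnt1 on chromosome 15, and Fzd10os and Fzd10 on chromosome 5. Between root and arch both genes passed the test only in the last pair. Wnt9b rose by 1.67 while Wnt3, with 3.58, 3.64 and 3.49 in the root and 3.84, 3.53 and 3.87 in the 129 arch, differed by −0.18 (adjusted p = 0.370). Wnt9a rose by 0.43 while Wnt3a differed by −0.05 (adjusted p = 0.873). In the pairs of Wnt6 with Wnt10a and of Wnt10b with Wnt1 neither gene passed by limma.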
